A study of Mus musculus with 7 samples.

Results

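The 10 genes described here are Hif1a, which encodes the oxygen-regulated subunit of the hypoxia-inducible transcription factor HIF1, and 9 genes known to be switched on by HIF1, namely Vegfa, Bnip3, Egln1, Egln3, Car9, Ndrg1, Adm, P4ha1 and Ankrd37. They were chosen by symbol for their known place in the hypoxia response, and all 10 were found by Ensembl identifier among the 29267 genes of each table. RNA-Seq was performed during the generation of induced pluripotent stem cells, to compare cells obtained in 5C medium with those obtained in conventional mES medium, and then with naive and primed pluripotent cells. There were 7 libraries, 1 for each group, so that no difference has a replicate check.

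The sorted cells came from mouse embryonic fibroblasts of the OG2 line, which carry green fluorescent protein under the Oct4 promoter. They had been infected with retroviruses for Sox2, Klf4, c-Myc and Oct4, had been cultured in mES or 5C medium, and were sorted on day 15, at passage 0, by the presence or absence of the reporter signal. This gave mES-Oct4GFP+ and mES-Oct4GFP- cells from mES medium, as well as 5C-Oct4GFP+ and 5C-Oct4GFP- cells from 5C medium. The mES medium contained serum, whereas 5C medium was chemically defined with N2 supplement and bFGF, and both contained LIF and vitamin C. A sorted library is a bulk of all cells in its gate. The 5C-Oct4GFP+ (naive) and 5C-Oct4GFP+ (primed) cells were obtained from 5C-Oct4GFP+ cells in naive or primed medium and are labelled with 20 passages, and R1 ESCs-primed were primed cells made from the R1 embryonic stem cell line, also at passage 20. By the study's methods, R1 cells were primed on a feeder layer of mouse embryonic fibroblasts. They were then kept without bFGF and activin A, with small molecules in their place. Medium and passage number changed together between the sorted and the converted cells and cannot be told apart. The labels give the passage number, whereas the text of the study also describes a culture of a few days in these media, so the time in the new medium is uncertain. According to the study, the cells converted in primed medium had lost the green fluorescence, so their name gives their origin.

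When oxygen is plentiful, dioxygenases of the EGLN family hydroxylate the HIF alpha subunits, which are then bound by the von Hippel-Lindau protein and destroyed. When oxygen is scarce, or when the hydroxylases are held back by other means, the alpha subunit is spared, pairs with ARNT and binds hypoxia response elements near genes for angiogenesis, glycolysis, mitophagy and pH control. The amount of HIF1 protein is thus set largely after transcription, and RNA-Seq reads the Hif1a transcript and the transcripts of its targets but not the protein.

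The core of a hypoxia response element reads ACGTG or GCGTG on either strand, and CACGTG, in which an ACGTG lies on each strand, is also the E-box that MYC and other factors recognize. RefSeq promoter windows of 300 bases (250 before and 50 after the start site, GRCm38.p6) were found for 9 of the 10 genes, and Ndrg1 has no entry. These 9 genes have 10 windows. At least 1 core was found in 9 of the 10 windows and for all 9 genes, against 43.8% of 32851 promoters of the same length. Counted by gene, an ACGTG core was present in 8 of the 9 and a CACGTG in 2 of the 9 (Bnip3 and Hif1a). Counted by promoter window, the shares over all were 19.6% and 7.15%, so the 2 kinds of count are not strictly alike. The member windows were richer in G and C (median 65.5%) than all windows (median 52.7%), and a match describes letters, not a bound site. The windows below belong to 4 genes that were at least 2-fold higher among Oct4GFP+ cells in 5C than in mES medium, and to P4ha1, which was not. Each is written 5′ to 3′ on the strand of the gene, with the cores in capitals, and CACGC is GCGTG on the opposite strand. Further cores of Ankrd37 and P4ha1 lie nearer to the start site, outside these stretches.
Bnip3, chr7:138909525-138909635, minus strand: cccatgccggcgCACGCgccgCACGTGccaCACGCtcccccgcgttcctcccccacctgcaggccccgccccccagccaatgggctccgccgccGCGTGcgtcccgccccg
Ankrd37, chr8:45999986-46000100, minus strand: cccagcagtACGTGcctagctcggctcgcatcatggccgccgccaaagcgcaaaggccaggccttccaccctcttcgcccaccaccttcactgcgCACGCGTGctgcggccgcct
Egln3, chr12:54204087-54204115, minus strand: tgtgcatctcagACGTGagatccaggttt
Adm, chr7:110627555-110627619, plus strand: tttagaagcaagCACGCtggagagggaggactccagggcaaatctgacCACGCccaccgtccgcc
P4ha1, chr10:59323121-59323186, plus strand: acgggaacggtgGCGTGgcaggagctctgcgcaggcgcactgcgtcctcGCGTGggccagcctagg

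**Figure D1:**
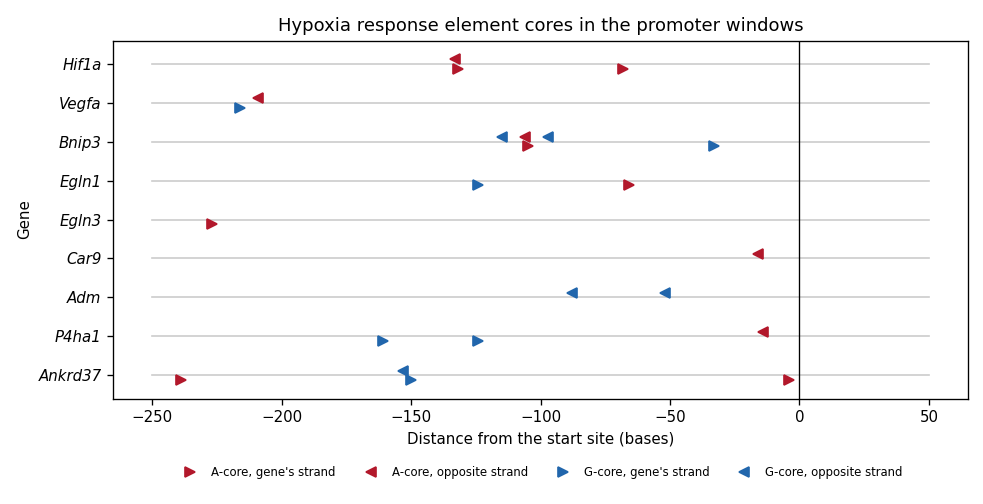
Positions of hypoxia response element cores in the promoter windows of 9 genes, as the distance in bases from the RefSeq start site (vertical line). Red marks the core that begins with A, blue the core that begins with G, and the arrow shows the strand. Every gene shown has at least 1 core, all of them upstream of the start site, and Bnip3 has the most, with 5 matches of which 2 overlap in its CACGTG.

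Expression is given as TPM, a level per transcript length that has 1 common total across libraries, with an exact 95% Poisson interval from the estimated count. The interval covers the sampling of reads only, and a level of 0 is set against a floor of 3 counts. The estimated counts summed to between 6108252 and 11496615 per library. All 8 pluripotency markers were at 1 TPM or more in 6 of the 7 libraries, and 6 of them were in 5C-Oct4GFP+ (primed) cells, where Zfp42 was listed at 0. Their levels still differed widely. In mES-Oct4GFP- against mES-Oct4GFP+ cells, Nanog had 17.11 against 696.74 TPM and Zfp42 had 1.31 against 337.06 TPM. Dppa5a, Utf1 and Tdgf1 were lower there too, whereas Pou5f1, Sox2 and Lin28a were higher. The 8 naive markers summed to 1896 TPM in mES-Oct4GFP+ cells and to 1547 TPM after naive conversion, but to 85.74 TPM in mES-Oct4GFP- cells and to 7.87 TPM after primed conversion, and the 8 primed markers were highest in the 2 primed libraries (2066 and 1867 TPM). Pou5f1 reached 3640 TPM in mES-Oct4GFP- cells, where reads from the retroviral Oct4 and from the endogenous gene cannot be told apart. The same holds for Sox2, also delivered by retrovirus, which had 497.91 TPM in mES-Oct4GFP- and 679.85 TPM in 5C-Oct4GFP- cells.

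The 9 targets were highest in mES-Oct4GFP- cells and lowest in the naive-type libraries. Their summed level was 2470 TPM in mES-Oct4GFP- cells, and in 5C medium it was 621.4 TPM without and 445.9 TPM with the reporter. It was 285.4 TPM after primed conversion, 235.7 TPM for R1 ESCs-primed, 113.6 TPM for mES-Oct4GFP+ cells and 70.4 TPM after naive conversion. Of the 10 genes, 8 had their highest level in mES-Oct4GFP- cells, Car9 had it in 5C-Oct4GFP- and Hif1a in 5C-Oct4GFP+ (primed) cells. The lowest level was in 5C-Oct4GFP+ (naive) cells for 8 genes and in mES-Oct4GFP+ cells for Ndrg1 and Adm.

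**Figure D2:**
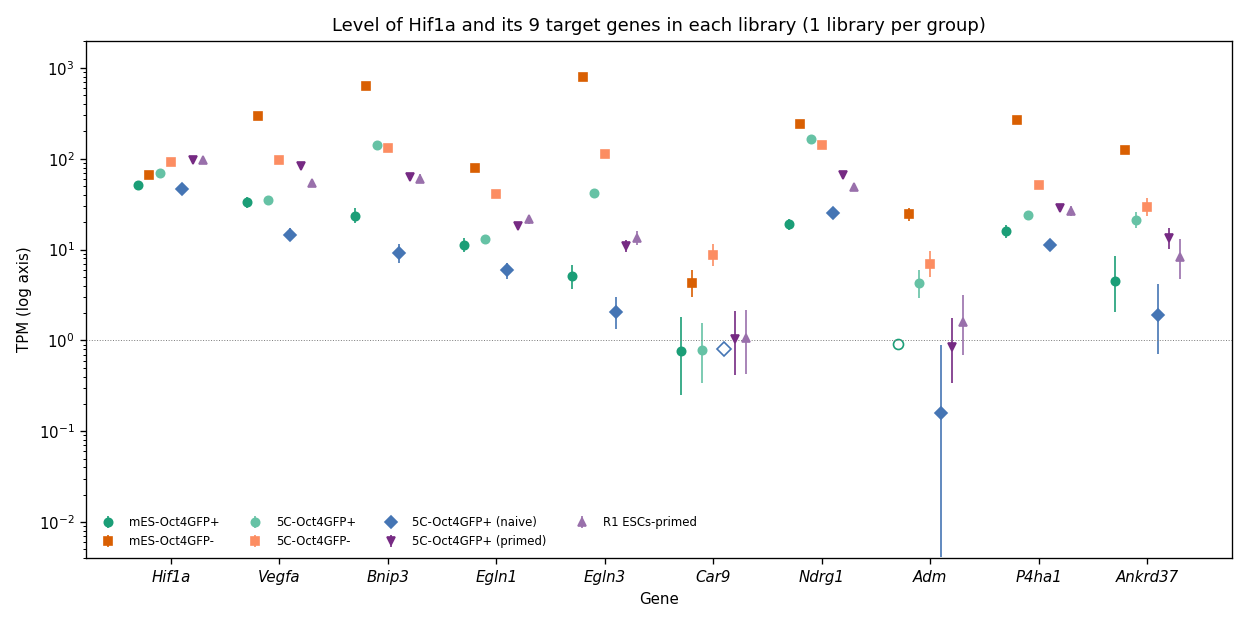
TPM on a log axis for each of the 10 genes in each of the 7 libraries, with 1 point per library and bars for the exact 95% Poisson interval of the count. Open symbols mark genes listed at 0, drawn at the level of 3 counts (Car9 in 5C-Oct4GFP+ (naive) and Adm in mES-Oct4GFP+ cells). The mES-Oct4GFP- squares lie above all other libraries for 8 genes, and Hif1a spans the narrowest range, 46.89 to 97.13 TPM.

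The transcript of the factor itself varied little. Hif1a (ENSMUSG00000021109, chromosome 12, 73901375 to 73947530, plus strand) had 51.35 TPM (Oct4GFP+) and 65.93 TPM (Oct4GFP-) in mES medium, 69.81 TPM (Oct4GFP+) and 93.03 TPM (Oct4GFP-) in 5C medium, 46.89 TPM after naive and 97.13 TPM after primed conversion, and 96.11 TPM in R1 ESCs-primed cells. The highest and lowest libraries differed 2.07-fold, and among the 3 highest libraries, both primed ones and 5C-Oct4GFP-, neighbours in order were not distinguishable by counting. The next step down, from 5C-Oct4GFP- to 5C-Oct4GFP+, was 1.33-fold (1.25 to 1.43). On TPM, counting did not separate 5C-Oct4GFP+ from mES-Oct4GFP- cells (ratio 0.980 to 1.15), nor mES-Oct4GFP+ cells from the naive conversion (0.995 to 1.20). The estimated effective length of Hif1a was 3557.83 bases in mES-Oct4GFP- and 4353.63 or more in every other library. Without the length, mES-Oct4GFP- cells had the lowest Hif1a CPM of all libraries (117.3). The CPM was 118.0 after naive conversion, 128.3 in mES-Oct4GFP+ cells and 166.2 in 5C-Oct4GFP+ cells. The place of mES-Oct4GFP- cells in the order thus depended on the unit. An antisense gene, Gm15283, shares 330 of the 5896 annotated exon bases of Hif1a, and its own highest level was 6.56 TPM. A gene on the same strand, Gm49321, shares 148 bases and was not among the genes measured.

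Across the 7 libraries the targets varied together far more than they followed Hif1a. Pearson's r of log2(TPM + 1) was between 0.69 and 0.99 (median 0.91) for the 36 pairs of targets and between 0.28 and 0.50 (median 0.44) for Hif1a with each target. These are descriptions over 7 libraries that share culture media and cell origins. In mES-Oct4GFP- against mES-Oct4GFP+ cells the summed targets differed 21.7-fold where Hif1a differed 1.28-fold, and in 5C-Oct4GFP+ (primed) against mES-Oct4GFP- cells Hif1a was higher while the summed targets were 8.65-fold lower. In bulk RNA, fewer cells that express a gene and less of its RNA per cell cannot be told apart.

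**Figure D3:**
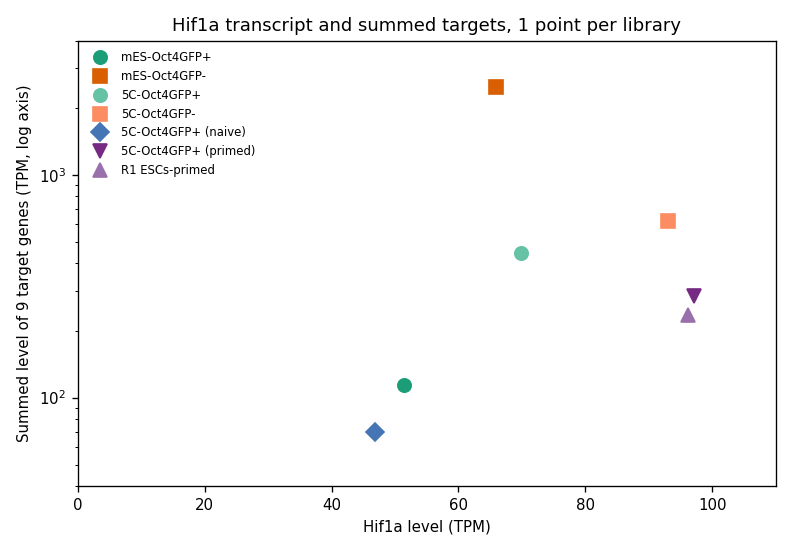
Hif1a level (TPM, linear axis) against the summed level of the 9 targets (TPM, log axis), 1 point per library. mES-Oct4GFP- cells stand at the top, at 2470 TPM, with a Hif1a level of 65.93 TPM, whereas the 2 primed libraries, with the highest Hif1a levels, lie at 285.4 and 235.7 TPM.

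The other HIF subunits were less even. Epas1, which encodes HIF2 alpha, had 14.11 TPM (Oct4GFP+) and 68.56 TPM (Oct4GFP-) in mES medium, 90.46 TPM (Oct4GFP+) and 57.80 TPM (Oct4GFP-) in 5C medium, 20.94 TPM after naive and 4.16 TPM after primed conversion, and 3.77 TPM in R1 ESCs-primed cells. The 5C-Oct4GFP+ level was thus the highest of all 7 libraries, 6.41-fold that of mES-Oct4GFP+ (5.63 to 7.34). Hif3a, whose product can restrain the other alpha subunits, was highest in the primed libraries (13.48 and 14.19 TPM) and lowest in the naive-type ones (1.28 and 1.22 TPM). Of the summed TPM of the 3 alpha subunits, Epas1 took 54.7% in 5C-Oct4GFP+ cells, 48.6% for mES-Oct4GFP- and only 3.62% after primed conversion. Arnt, the shared beta subunit, was between 72.32 and 75.86 TPM in mES-Oct4GFP- and in both 5C sorted libraries and between 34.00 and 39.18 TPM in the other 4. Arnt2, its paralog, was lowest after naive conversion (0.29 TPM) and highest in 5C-Oct4GFP- cells (13.23 TPM).

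The hydroxylases that oppose HIF included the member with the widest range. Egln3 (ENSMUSG00000035105, chromosome 12, 54178981 to 54203860, minus strand), known as a strong HIF target that feeds back on HIF, had 5.10 TPM (Oct4GFP+) and 799.90 TPM (Oct4GFP-) in mES medium, 41.95 TPM (Oct4GFP+) and 113.29 TPM (Oct4GFP-) in 5C medium, 2.04 TPM after naive and 10.99 TPM after primed conversion, and 13.35 TPM in R1 ESCs-primed cells. This is a 392-fold range, and Egln3 was the gene of rank 128 in mES-Oct4GFP- cells and of rank 11844 after naive conversion. Egln1 (ENSMUSG00000031987, chromosome 8, 124908587 to 124949324, minus strand), the main HIF hydroxylase of most cells, had 11.34 TPM (Oct4GFP+) and 79.02 TPM (Oct4GFP-) in mES medium, 12.93 TPM (Oct4GFP+) and 40.84 TPM (Oct4GFP-) in 5C medium, 5.90 TPM after naive and 18.38 TPM after primed conversion, and 21.67 TPM in R1 ESCs-primed cells. Among Oct4GFP+ cells its level was not distinguishable by counting between the media (ratio 1.14, 0.919 to 1.42). Egln2, which is not induced by hypoxia in most cells, stayed between 46.51 and 60.86 TPM in all 7 libraries. The leading member of the family therefore changed. Egln3 took 85.7% of the summed EGLN TPM in mES-Oct4GFP- cells, 53.3% (Oct4GFP-) and 41.4% (Oct4GFP+) in 5C medium, and 2.97% after naive conversion, where Egln2 took 88.5%. Vhl, which marks the hydroxylated subunits for destruction, was lowest in 5C-Oct4GFP+ cells (10.24 TPM) and highest in mES-Oct4GFP+ cells (33.48 TPM).

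**Figure D4:**
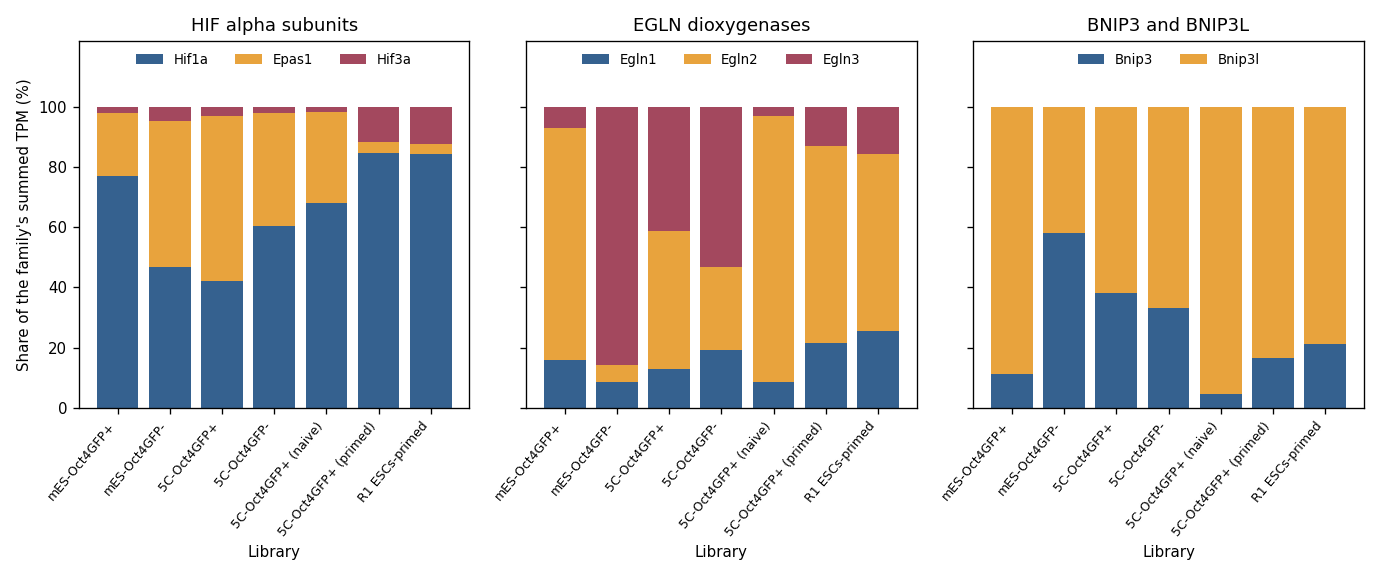
Stacked bars of the share of summed TPM, from 0 to 100%, taken by each HIF alpha subunit (left), each EGLN dioxygenase (middle), and Bnip3 and Bnip3l (right) in each library. Epas1 takes its largest share in 5C-Oct4GFP+ cells (54.7%), Egln3 in mES-Oct4GFP- cells (85.7%), and Bnip3 in mES-Oct4GFP- cells (58.0%).

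Bnip3, a mitochondrial receptor that draws mitochondria into autophagy, and Ndrg1, a stress-responsive gene linked to differentiation, were the members that stood high in both 5C fractions. Bnip3 (ENSMUSG00000078566, chromosome 7, 138890836 to 138909519, minus strand) had 23.59 TPM (Oct4GFP+) and 639.13 TPM (Oct4GFP-) in mES medium, 141.69 TPM (Oct4GFP+) and 131.47 TPM (Oct4GFP-) in 5C medium, 9.09 TPM after naive and 62.42 TPM after primed conversion, and 60.31 TPM in R1 ESCs-primed cells. The antisense gene Gm45507, which was not among the genes measured, shares 504 of the 2265 exon bases of Bnip3. The 2 Bnip3 levels in 5C medium did not differ beyond counting (ratio 1.08, 0.984 to 1.18). Its paralog Bnip3l ranged only from 185.15 to 463.45 TPM, so that the share of Bnip3 in the pair was 58.0% for mES-Oct4GFP-, 38.1% for 5C-Oct4GFP+, 11.3% for mES-Oct4GFP+ and 4.61% after naive conversion. Ndrg1 (ENSMUSG00000005125, chromosome 15, 66929318 to 66969640, minus strand) had 18.96 TPM (Oct4GFP+) and 238.50 TPM (Oct4GFP-) in mES medium, 163.54 TPM (Oct4GFP+) and 141.41 TPM (Oct4GFP-) in 5C medium, 25.44 TPM after naive and 65.97 TPM after primed conversion, and 49.06 TPM in R1 ESCs-primed cells. Within 5C medium it was the only member higher with than without the reporter whose counting interval left out 1 (ratio 1.16, 1.09 to 1.23), and it made up 36.7% of the summed target TPM of 5C-Oct4GFP+ cells against 9.66% for mES-Oct4GFP-. Of its paralogs, Ndrg3 stayed between 41.15 and 90 TPM, and Ndrg4 had 1.92 TPM with and 60.67 TPM without the reporter in mES medium. The antisense genes Gm17035 and Gm2895 share 419 and 137 of the 6596 exon bases of Ndrg1, at most 0.0 and 0.11 TPM.

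A pair of members encode secreted ligands. Vegfa (ENSMUSG00000023951, chromosome 17, 46016993 to 46032369, minus strand), the principal angiogenic growth factor, had 33.27 TPM (Oct4GFP+) and 293.27 TPM (Oct4GFP-) in mES medium, 35.57 TPM (Oct4GFP+) and 97.56 TPM (Oct4GFP-) in 5C medium, 14.60 TPM after naive and 83.68 TPM after primed conversion, and 53.86 TPM in R1 ESCs-primed cells. The levels in the 2 Oct4GFP+ fractions were not distinguishable by counting (ratio 1.07, 0.903 to 1.27). Adm (ENSMUSG00000030790, chromosome 7, 110627661 to 110629820, plus strand), which encodes the vasodilator peptide adrenomedullin, was listed at 0 (Oct4GFP+) and had 24.61 TPM (Oct4GFP-) in mES medium, 4.26 TPM (Oct4GFP+) and 6.99 TPM (Oct4GFP-) in 5C medium, 0.16 TPM after naive and 0.85 TPM after primed conversion, and 1.59 TPM in R1 ESCs-primed cells. These rest on few reads, with 142 counts in mES-Oct4GFP- cells, 32 and 39 in the 5C fractions and at most 8 elsewhere, and the floor of 3 counts is 0.923 TPM in mES-Oct4GFP+ cells. Among the receptors, Flt1, which binds VEGFA, was at 66.79 and 42.49 TPM in the primed libraries, 22.27 TPM in mES-Oct4GFP- and at most 2.17 TPM in the other 4. Ramp3, which makes the calcitonin receptor-like receptor respond to adrenomedullin, was at 81.79 TPM (Oct4GFP+) and 136.47 TPM (Oct4GFP-) in 5C medium. It was also at 59.76 TPM in mES-Oct4GFP- cells, and at 46.95 TPM after primed conversion and 30.13 TPM in R1 ESCs-primed cells. Only the naive-type libraries were low, with 0.26 TPM (1 count) for mES-Oct4GFP+ and 0.73 TPM after naive conversion. The receptor gene Calcrl itself did not exceed 3.40 TPM in any library.

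P4ha1 (ENSMUSG00000019916, chromosome 10, 59323296 to 59373304, plus strand), a subunit of the collagen prolyl hydroxylase, had 16.01 TPM (Oct4GFP+) and 264.41 TPM (Oct4GFP-) in mES medium, 24.02 TPM (Oct4GFP+) and 51.52 TPM (Oct4GFP-) in 5C medium, 11.25 TPM after naive and 28.66 TPM after primed conversion, and 26.63 TPM in R1 ESCs-primed cells. It held between 66.8% and 87.5% of the P4ha1, P4ha2 and P4ha3 total in every library. Unlike the EGLN and BNIP3 families, this family therefore kept the same leading member throughout. Ankrd37 (ENSMUSG00000050914, chromosome 8, 45996902 to 46005707, minus strand), an ankyrin repeat gene known mainly as a direct HIF1 target, had 4.53 TPM (Oct4GFP+) and 126.44 TPM (Oct4GFP-) in mES medium, 21.12 TPM (Oct4GFP+) and 29.58 TPM (Oct4GFP-) in 5C medium, 1.92 TPM after naive and 13.37 TPM after primed conversion, and 8.21 TPM in R1 ESCs-primed cells. It shares 349 of its 1539 exon bases with the antisense gene Lrp2bp, at most 7.07 TPM, and 57 with Ufsp2, at most 48.40 TPM, and reads of the shared bases cannot be told apart without strand. Car9 (ENSMUSG00000028463, chromosome 4, 43506966 to 43513729, plus strand), a membrane carbonic anhydrase used as a clinical marker of hypoxia, was low throughout, with 0.77 TPM (Oct4GFP+) and 4.29 TPM (Oct4GFP-) in mES medium, 0.79 TPM (Oct4GFP+) and 8.73 TPM (Oct4GFP-) in 5C medium, 1.03 TPM after primed conversion and 1.06 TPM in R1 ESCs-primed cells. It was listed at 0 after naive conversion, where 3 counts are worth 0.812 TPM. Its counts were 55 in 5C-Oct4GFP-, 37 in mES-Oct4GFP- and at most 8 elsewhere. The antisense gene Gm12454 shares 214 of the 2304 exon bases of Car9, at most 1.64 TPM.

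**Figure D5:**
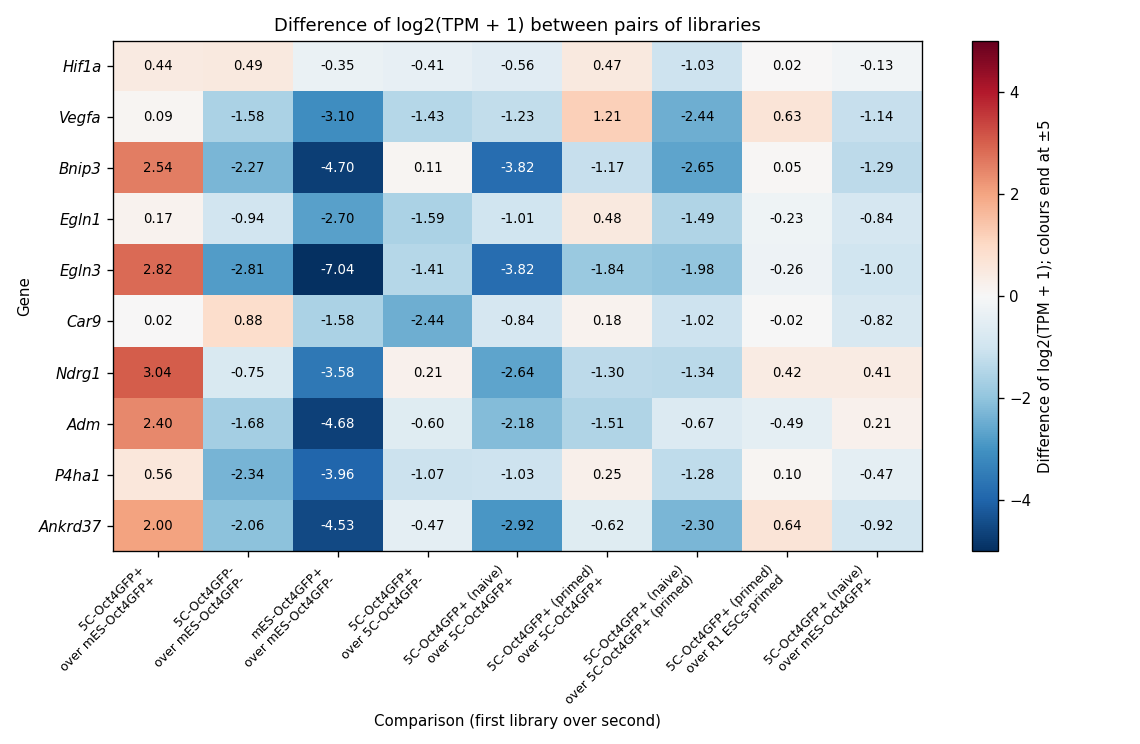
Difference of log2(TPM + 1) for each gene (rows) in each comparison (columns, the first library over the second), with red for higher and blue for lower in the first library. Bnip3, Egln3, Adm and Ankrd37 are red for the media compared in Oct4GFP+ cells (2.0 to 2.82) and blue for the media compared in Oct4GFP- cells (-2.81 to -1.68), and 5C-Oct4GFP+ (primed) over R1 ESCs-primed is pale for every gene.

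Libraries were compared by their difference of log2(TPM + 1), on which low genes appear to change less than they do. A gene was counted as higher or lower at 2-fold or more on this scale when it had at least 1 TPM in either library. The comparisons share libraries, so their counts are not independent of each other. Ratios carry an exact Clopper-Pearson 95% interval from the counts.

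The first comparison asked how 5C medium differed from mES medium in cells that had switched on the Oct4 reporter. For 5C-Oct4GFP+ over mES-Oct4GFP+, 5 of the 10 genes (Bnip3, Egln3, Ndrg1, Adm and Ankrd37) were higher and none was lower, where 13.7% of 15196 genes were higher and 13.5% were lower. Ndrg1 was 8.63-fold higher (7.41 to 10.1), Egln3 8.23-fold (6.05 to 11.4), Bnip3 6.01-fold (4.94 to 7.37) and Ankrd37 4.66-fold (2.36 to 10.5, from 98 against 9 counts). Adm was at least 4.61-fold higher against the floor of 3 counts in mES-Oct4GFP+ cells, and the counting interval of its ratio began at 3.54. The study's own list of genes that mark the 5C state includes Ndrg1, Adm and Egln3 and was drawn from these libraries, so it is not independent evidence for them. By contrast P4ha1 was 1.5-fold (1.24 to 1.82) and Hif1a 1.36-fold higher (1.25 to 1.48), both within 2-fold, and the intervals for Vegfa and Egln1 held 1. Car9 was under 1 TPM in both libraries. The median difference of the 10 genes was 1.28, against -0.03 over all genes above 0.

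Other genes of the pathway were also examined. Of 108 other listed genes, 34 were higher, 9 were lower, 57 were within 2-fold and the rest were under 1 TPM in both libraries. The higher ones included Slc16a3, which exports lactate (154.19 against 2.22 TPM, 39.6- to 135-fold by counting), Ramp3, Pdk1, a kinase that keeps pyruvate out of mitochondria (233.09 against 28.67 TPM), and Ndufa4l2, a mitochondrial HIF target (15.21 TPM against 0, at least 15-fold against 3 counts, with an interval from 11.9). Of 15 genes of glucose uptake and glycolysis, 7 were higher and none was lower. A further list of 28 hypoxia-induced genes was mixed, with 6 higher, 4 lower and 16 within 2-fold. Tfrc was among its lower genes (41.15 against 232.79 TPM). Of 11 genes of pH regulation, 2 were higher and 8 were within 2-fold. Vhl and Siah2, whose products act in HIF and EGLN turnover, were lower (10.24 against 33.48 TPM and 3.95 against 13.30 TPM). The 12 fibroblast markers were near their lowest in both, with sums of 14.07 TPM (5C) and 16.46 TPM (mES) and with 4 and 5 of them at 1 TPM or more. The 6 keratinocyte markers summed to 238.0 against 82.77 TPM, of which Krt17 gave 120.56 TPM against 0. The 6 endothelial markers summed to 29.53 against 9.92 TPM, with 3 and 2 of them at 1 TPM or more. The 6 macrophage markers summed to 42.96 against 13.70 TPM, with 1 of them at 1 TPM or more in each library and with Csf1r, Adgre1, Lyz2 and Tyrobp at 0 in 5C-Oct4GFP+ cells. The part of these cell types in the result was not tested.

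In cells without the reporter the difference ran the other way. In 5C-Oct4GFP- over mES-Oct4GFP- cells, 6 of the 10 genes (Vegfa, Bnip3, Egln3, Adm, P4ha1 and Ankrd37) were lower and none was higher, where 10.1% of 15859 genes were lower and 9.68% were higher. Egln3 was 7.06-fold lower (6.66 to 7.5), P4ha1 5.13-fold (4.71 to 5.60), Bnip3 4.86-fold (4.50 to 5.26), Ankrd37 4.28-fold (3.36 to 5.49), Adm 3.52-fold (2.46 to 5.16) and Vegfa 3.01-fold (2.78 to 3.26). Egln1 lay just inside the limit, 1.94-fold lower (1.75 to 2.14), and Ndrg1 was 1.69-fold lower (1.59 to 1.79). Hif1a was 1.41-fold higher (1.31 to 1.53) and Car9 was 2.04-fold higher by TPM (1.32 to 3.19), a difference of 0.88 on the log2(TPM + 1) scale. The size of the Hif1a difference depended on the unit. It was 0.49 on TPM and reached 0.82 under another setting, with 208.0 against 117.3 CPM. The median difference of the 10 genes was -1.63, against 0.02 over all genes above 0. Of the 108 other listed genes 33 were lower and 7 were higher, and Slc2a1, a glucose transporter, had 292.67 against 1765 TPM. The 12 fibroblast markers summed to 296.0 TPM in 5C and 632.6 TPM in mES medium, with 11 and 12 of them at 1 TPM or more, and the keratinocyte markers to 359.2 and 467.2 TPM. Macrophage markers summed to 20.44 and 58.72 TPM, with Csf1r at 0 and 5.33 TPM, and endothelial markers to 47.56 and 46.54 TPM. The first 3 lists were thus lower in sum where the targets were lower, but single markers went the other way. Krt5 (43.81 against 2.41 TPM), Trp63, Thy1 (53.29 against 8.73 TPM), Dcn and Lum were higher in 5C medium. Among endothelial markers, Tek was higher (40.36 against 19.9 TPM), while Cdh5, Tie1, Emcn, Esam and Cldn5 were lower. The part of these cell types in the result was not tested.

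The medium difference therefore had opposite directions in the 2 fractions for 6 genes (Bnip3, Egln3, Ndrg1, Adm, P4ha1 and Ankrd37), each with both counting intervals off 1. Among 13903 genes with at least 1 TPM in a library of each comparison, 10.1% were likewise higher in the Oct4GFP+ and lower in the Oct4GFP- fraction, and 11.1% showed the opposite. These 2 comparisons share no library. However, both fractions of a medium were sorted on the same day of reprogramming, so the comparisons may share cultures and need not be independent.

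Sorting on the reporter separated the targets most in mES medium. In mES-Oct4GFP+ over mES-Oct4GFP- cells, 9 of the 10 genes, all but Hif1a, were lower and none was higher, where 28.8% of 16294 genes were lower and 17.9% were higher. Egln3 was 157-fold lower in the Oct4GFP+ cells (117 to 216), Ankrd37 27.9-fold (14.6 to 61.5), Bnip3 27.1-fold (22.4 to 33.1) and Adm at least 26.7-fold against 3 counts, with a counting interval that began at 21.4. P4ha1 was 16.5-fold, Ndrg1 12.6-fold, Vegfa 8.82-fold, Egln1 6.97-fold and Car9 5.57-fold lower, the last with a counting interval of 2.19 to 18.2. The median difference of the 10 genes was -3.77, against -0.14 over all genes above 0, and 62 of the 108 other listed genes were lower and 6 were higher. Fibroblast and keratinocyte markers stood with the targets. Fibroblast markers summed to 16.46 TPM (5 of 12 at 1 TPM or more, Twist2 at 0) with the reporter and to 632.6 TPM (12 of 12) without it. Keratinocyte markers summed to 82.77 TPM, nearly all from Sfn and with Krt5, Krt14, Krt17 and Krt6a at 0, against 467.2 TPM. Endothelial markers summed to 9.92 against 46.54 TPM and macrophage markers to 13.70 against 58.72 TPM. The part of these other cells in the result was not tested.

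In 5C medium the same sort gave a smaller contrast. For 5C-Oct4GFP+ over 5C-Oct4GFP-, 5 of the 10 genes (Vegfa, Egln1, Egln3, Car9 and P4ha1) were lower and none was higher, where 22.6% of 15675 genes were lower and 8.45% were higher. Car9 was 11.1-fold lower (5.25 to 27.0), Egln1 3.16-fold (2.72 to 3.67), Vegfa 2.74-fold (2.43 to 3.10), Egln3 2.70-fold (2.45 to 2.98) and P4ha1 2.15-fold (1.89 to 2.44). P4ha1 was within 2-fold under 3 of 4 other settings. Bnip3 was level, Ndrg1 was slightly higher, and Adm and Ankrd37 were 1.64-fold (1.00 to 2.71) and 1.40-fold lower (1.03 to 1.90). By CPM, which leaves out the effective length, Ankrd37 was nearly level, with 9.381 against 9.819. The median difference of the 10 genes was -0.84, against -0.18 over all genes above 0. Fibroblast markers summed to 14.07 TPM with and 296.0 TPM without the reporter, and keratinocyte markers to 238.0 and 359.2 TPM. Endothelial markers summed to 29.53 and 47.56 TPM, mostly from Tek (22.66 and 40.36 TPM). Macrophage markers summed to 42.96 and 20.44 TPM, nearly all from Cd68 (42.67 and 20.09 TPM). The part of these cell types was not tested.

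The targets were lower after conversion in naive medium. In 5C-Oct4GFP+ (naive) over 5C-Oct4GFP+ cells, 8 of the 10 genes were lower and none was higher, where 17.5% of 14863 genes were lower and 10% were higher. Egln3 was 20.6-fold lower (13.8 to 32.0), Bnip3 15.6-fold (12.3 to 20.1), Ankrd37 11.0-fold (4.87 to 30.7) and Ndrg1 6.43-fold (5.74 to 7.22). Adm went from 32 counts to 1 count, a ratio of 26.6 with a counting interval of 4.39 to 1071. Vegfa was 2.44-fold lower (2.02 to 2.95), whereas Egln1 (2.19-fold, 1.72 to 2.80) and P4ha1 (2.14-fold, 1.77 to 2.59) were only just past the limit and lay within 2-fold under 2 and 3 of 4 other settings. Hif1a was 1.49-fold lower (1.38 to 1.61), and Car9 was under 1 TPM in both libraries. The median difference of the 10 genes was -1.71, against -0.08 over all genes above 0, and Slc16a3 and Ramp3 had 1.72 and 0.73 TPM in the converted cells against 154.19 and 81.79 TPM before. Fibroblast markers summed to 17.08 and 14.07 TPM in the converted and the sorted cells. Keratinocyte markers summed to 76.55 and 238.0 TPM, endothelial markers to 4.85 and 29.53 TPM and macrophage markers to 17.57 and 42.96 TPM. The sums of these 3 lists were thus lower together with the targets. However, Cd68 gave nearly all of both macrophage sums (17.5 and 42.67 TPM) and Tek most of both endothelial sums (4.06 and 22.66 TPM). The part of these cell types was not tested.

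The converted naive cells were also set against mES-Oct4GFP+ cells. In 5C-Oct4GFP+ (naive) over mES-Oct4GFP+ cells, Vegfa, Bnip3 and Egln3 were lower and none of the 10 was higher, where 6.27% of 14477 genes were lower and 2.49% were higher. Bnip3 was 2.60-fold (1.91 to 3.54), Egln3 2.50-fold (1.5 to 4.26) and Vegfa 2.28-fold lower (1.84 to 2.82). Each of these calls was lost under at least 1 other setting. Egln1 was 1.92-fold (1.46 to 2.53) and P4ha1 1.42-fold lower (1.13 to 1.79), whereas Ndrg1 was 1.34-fold higher (1.12 to 1.62). The median difference of the 10 genes was -0.83, against -0.12 over all genes above 0. Of the 108 other listed genes, 3 were higher and 3 were lower. Adm and Car9 were under 1 TPM in both libraries and Hif1a did not differ beyond counting.

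Conversion in primed medium left a mixed picture. In 5C-Oct4GFP+ (primed) over 5C-Oct4GFP+ cells, Bnip3, Egln3, Ndrg1 and Adm were lower and Vegfa was higher, where 16.1% of 15067 genes were lower and 13.7% were higher. Egln3 was 3.82-fold lower (3.23 to 4.53), Ndrg1 2.48-fold (2.31 to 2.66), Bnip3 2.27-fold (2.05 to 2.51) and Adm 5.01-fold (2.17 to 13.4, from 7 against 32 counts), while Vegfa was 2.35-fold higher (2.09 to 2.65). Egln1, P4ha1 and Hif1a were 1.42-fold (1.21 to 1.67), 1.19-fold (1.04 to 1.36) and 1.39-fold higher (1.31 to 1.48). Ankrd37 was 1.58-fold lower (1.12 to 2.24). This comparison shares the 5C-Oct4GFP+ library with the comparison of media, so the directions in both are not independent. Epas1 was 18.3- to 26.0-fold lower by counting (4.16 against 90.46 TPM), Flt1 was at 66.79 against 0.66 TPM, and Slc16a3 did not differ beyond counting (146.37 against 154.19 TPM). Fibroblast markers summed to 91.06 against 14.07 TPM. Keratinocyte markers summed to 65.10 against 238.0 TPM, endothelial markers to 1.31 against 29.53 TPM and macrophage markers to 11.28 against 42.96 TPM. Nearly all of both macrophage sums came from Cd68 (10.84 against 42.67 TPM). The part of these cell types in the result was not tested.

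The converted libraries themselves differed throughout. In 5C-Oct4GFP+ (naive) over 5C-Oct4GFP+ (primed) cells, 9 of the 10 genes were lower and none was higher, where 22.2% of 15249 genes were lower and 16.7% were higher. Ankrd37 was 6.96-fold (3.0 to 19.8), Bnip3 6.87-fold (5.37 to 8.90), Vegfa 5.73-fold (4.83 to 6.84) and Egln3 5.39-fold lower (3.53 to 8.53) in the naive cells. Egln1, Ndrg1 and P4ha1 were 3.12-fold, 2.59-fold and 2.55-fold lower. Hif1a was 2.07-fold lower (1.92 to 2.23) and was within 2-fold under 2 of 4 other settings. Car9 had 0 against 7 counts, which is at least 1.27-fold lower with a counting interval of the ratio that held 1, and it was within 2-fold under 2 of 4 other settings. Adm was under 1 TPM in both libraries. Fibroblast markers summed to 17.08 TPM in the naive and 91.06 TPM in the primed cells, keratinocyte markers to 76.55 and 65.10 TPM, endothelial markers to 4.85 and 1.31 TPM and macrophage markers to 17.57 and 11.28 TPM. Their part was not tested.

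The 2 primed libraries came from different starting cells. In 5C-Oct4GFP+ (primed) over R1 ESCs-primed cells none of the 10 genes was higher or lower, where 2.3% of 14600 genes were higher and 5.09% were lower, so that a count of 0 among 10 genes is near the share over all genes. The differences lay between -0.49 (Adm) and 0.64 (Ankrd37) on the log2(TPM + 1) scale. By counting, Vegfa (1.55-fold, 1.38 to 1.75) and Ndrg1 (1.35-fold, 1.21 to 1.49) were higher and Egln1 was slightly lower (1.18-fold, 1.01 to 1.38) in 5C-Oct4GFP+ (primed) cells, and the intervals of the other 7 held 1. Fibroblast markers summed to 91.06 TPM in the former and 262.5 TPM in the latter, and their part was not tested. These are not replicates, but the pair gives the only measure at hand of how far 2 libraries of the same labelled state lay apart.

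For each gene, those with the most similar pattern over the 7 libraries were sought among 8352 genes that reached 10 TPM and spanned at least 1 on the log2(TPM + 1) scale. Nfatc2 was nearest to both Bnip3 (r = 0.994) and Ankrd37 (r = 0.993). Ctnnd1 was nearest to Egln3 (r = 0.995), Cfap43 to Ndrg1 (r = 0.998), Dsp to Vegfa (r = 0.995), Morc4 to Egln1 (r = 0.996), Gm28875 to P4ha1 (r = 0.996), Adamtsl5 to Adm (r = 0.996) and Dock11 to Car9 (r = 0.994). Rnf26 was nearest to Hif1a (r = 0.993). The second in rank were Vps13b (Bnip3, r = 0.990), Tbc1d22b (Ankrd37, r = 0.989), Rbm33 (Egln3, r = 0.994), Celf4 (Ndrg1, r = 0.984), Gm26532 (Vegfa, r = 0.992), Notch2 (Egln1, r = 0.995), Asap2 (P4ha1, r = 0.995), Gsto1 (Adm, r = 0.994), Cxcl1 (Car9, r = 0.990) and Jph4 (Hif1a, r = 0.988). No member was among the 2 nearest genes of another member, although Car9, with at most 8.73 TPM, was not among the genes searched. Pearson's r takes no account of the size of a change. Ctnnd1, for example, ran only from 99.41 to 217.92 TPM, whereas Egln3 ran from 2.04 to 799.9 TPM. With 7 points and 8352 genes, such values describe these libraries only.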

How the data were processed

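The authors made TruSeq mRNA-Seq libraries from total RNA and sequenced them on an Illumina MiSeq. The deposited tables hold RSEM output, and the submitters' processing notes name Bowtie and mm10, with versions not given in the sources used here. The expected counts deposited by the authors are estimated reads per Ensembl gene, not normalized, and were rounded to whole numbers for intervals. TPM and FPKM were calculated by the authors from count and effective length, and TPM was the main value because the study's methods name it.

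Differences used log2(TPM + 1) in 9 comparisons, with a call at 2-fold among genes with at least 1 TPM in either library. With 1 library per group no test was run. Intervals of 95% (exact Poisson, Clopper-Pearson) cover counting error only, and PCR duplicates are not accounted for. A level of 0 was set against 3 counts. Genes named are the 10 members, their paralogs and partners, up to 3 genes per list and comparison with the largest difference past 2-fold, and the 2 genes most like each member. Markers are named by their levels. The members and lists were chosen with earlier results of these data known. Coordinates are from GENCODE M21 (GRCm38), the assembly of mm10, and sequences from RefSeq GRCm38.p6. The scripts were tested on simulated data. Alternatives were a pseudocount of 0.1, a minimum of 5 TPM or none, FPKM, median-ratio size factors and CPM. Intervals came from scipy 1.17.1, tables from pandas 2.3.3 with numpy 2.4.6, and plots from matplotlib 3.10.9, under Python 3.11.15.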

Additional observations from a re-analysis of the deposited data

Results flagged for a closer look

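For 6 of the 10 genes the difference between 5C and mES medium had opposite directions in Oct4GFP+ and in Oct4GFP- cells, with both counting intervals off 1. The difference between the fractions was not tested, since each group has 1 library. On the log2(TPM + 1) scale, the difference in Oct4GFP+ cells minus that in Oct4GFP- cells was 5.62 for Egln3 (2.82 and -2.81), 4.81 for Bnip3 (2.54 and -2.27), 4.08 for Adm (2.40 and -1.68), 4.06 for Ankrd37 (2.0 and -2.06), 3.79 for Ndrg1 (3.04 and -0.75) and 2.89 for P4ha1 (0.56 and -2.34). Of these, Ndrg1 in Oct4GFP- and P4ha1 in Oct4GFP+ cells lay within 2-fold. Among 13903 genes, 1406 (10.1%) showed the same pair of directions by the same rule.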

How the results depend on the processing

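Of 54 recounts of members past 2-fold (9 comparisons, 6 alternatives each), 52 were within 1.5 times the reported count. In 5C-Oct4GFP+ (naive) over mES-Oct4GFP+ cells, 3 members were past 2-fold on TPM but 1 with median-ratio size factors and 1 with CPM, and the cause was not tested. There were 90 differences of single members, each under 4 alternatives. Of the 360 values, 341 were counted as moved by no more than their counting error, 18 as moved by more and 1 as reversed. The reversed one was Hif1a in mES-Oct4GFP+ over mES-Oct4GFP- cells, at -0.35 on TPM and 0.13 with CPM, which leave out the shorter effective length in mES-Oct4GFP- cells. A change of sign within 2-fold was not counted as reversed where the counting interval held 1. Where a library had a count of 0, the interval has no bound, so such values could not be counted as moved. For example, Adm in 5C-Oct4GFP+ over mES-Oct4GFP+ cells ranged from 1.74 to 5.45. Of 50 differences past 2-fold, 42 were so under every one of these alternatives. Median-ratio scaling moved the median of all genes by up to 0.21 (5C-Oct4GFP+ over 5C-Oct4GFP-). It moved the share of higher among called genes from 28.4% to 42.5% in 5C-Oct4GFP+ (naive) over mES-Oct4GFP+ and from 27.2% to 37.2% in 5C-Oct4GFP+ over 5C-Oct4GFP- cells.

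Each group has 1 library, so variation among cultures was not measured and leaving out a replicate was not run. No paired analysis was possible because each group has 1 library. Depth limits Adm, Car9 and Ankrd37, which rest on under 10 counts in 4, 5 and 2 libraries.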
